A study of Mus musculus with 36 samples.

Results

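The 8 genes described here belong to the mitochondrial, or intrinsic, route of apoptosis. They were chosen by name, with earlier results of these data known: the BH3-only genes Bid, Pmaip1 (Noxa) and Bcl2l11 (Bim), the pore-forming effectors Bax and Bak1, the survival genes Mcl1 and Bcl2l1 (Bcl-xL), and the initiator caspase Casp9. Each symbol was matched to its Ensembl identifier, and all 8 were found among the 52636 genes listed in each of the 36 libraries. All 8 also passed the filter on low counts in every fit. No executioner caspase is among the 8, and Casp6 is described after them, from a pathway list.

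RNA-seq was performed on mouse intestines at stage E18.5 (30 libraries) and on mouse embryonic fibroblasts, or MEFs (6 libraries), with 3 libraries in each of 12 groups. None was treated. Genotypes are written here with D387A or C362A for the knock-in alleles of Casp8 and -/- for a knockout. The D387A set of intestines held an Mlkl-/- control, D387A on its own, D387A Cflar-/- Mlkl-/-, and 3 further genotypes that added to the latter Casp1-/-, Casp1-/- Ifnar1-/- or Casp1-/- Fadd-/-. The C362A set held its own Mlkl-/- control, C362A Mlkl-/-, C362A Mlkl-/- Casp1-/- and C362A Cflar-/- Mlkl-/-. The MEFs were Mlkl-/- or D387A Cflar-/- Mlkl-/-. Mlkl was therefore deleted in every group, controls included, except D387A on its own, in which the knock-in and intact Mlkl cannot be told apart. D387A impairs the autoprocessing of caspase-8, C362A removes its catalytic cysteine, Cflar encodes its partner cFLIP, and MLKL executes necroptosis. The alleles were not restricted to a cell type, so a whole intestine carried them in all of its cells, and a lower level in such bulk tissue cannot separate fewer cells of a type from less RNA per cell. The labels call the libraries of a group biological replicates without naming litters, so p-values measure the spread between these libraries.

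In the intrinsic route, BH3-only proteins sense damage or missing survival signals and release BAX and BAK from the BCL2-like proteins that hold them in check. BAX and BAK then open the outer mitochondrial membrane, cytochrome c escapes, and APAF1 assembles the apoptosome on which caspase-9 is activated and in turn cleaves further caspases. BID joins this route to the death receptor route, because caspase-8 cleaves it into an active fragment. All of these steps act on proteins, and the libraries measured only RNA.

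Depth ranged from 17943524 to 32307629 reads on genes per library, and the 8 genes drew between 323 reads (Bcl2l11) and 10843 reads (Mcl1) in a library. Levels are given as RPKM, reads scaled to exonic length and to the TMM-adjusted library size, and differences as log2 fold changes with their standard error (SE). The deleted genes, in the authors' own RPKM, matched the labels where the whole-gene value could show it. Casp1 was at 26.5 to 69.1 RPKM in the 18 intestines with an intact gene and at 0 to 0.12 RPKM in the 12 with the deletion, and Fadd was at 5.93 to 10.7 RPKM in 27 intestines against 0.133 to 0.208 RPKM in the 3 deleted. Ifnar1 was at 16.0 to 22.2 RPKM in 27 intestines and at 7.18 to 8.52 RPKM in the 3 deleted, while Cflar and Mlkl overlapped between deleted and intact intestines and checked nothing. Whole-gene Mlkl was at 2.95, 3.37 and 20.4 RPKM in the 3 D387A Cflar-/- Mlkl-/- Casp1-/- libraries, against 20.1 to 24.6 RPKM with Ifnar1-/- or Fadd-/- added and 2.00 to 2.30 RPKM in the controls of that set. Epithelial markers (8 genes) summed to between 3656 and 6580 CPM (counts scaled to library size) in every intestine and to between 40.8 and 68.5 CPM in MEFs, in which 8 fibroblast genes summed to 23804 to 27175 CPM. The third D387A Cflar-/- Mlkl-/- Casp1-/- library stood apart from its group in several of the genes below, and 7 erythroid genes summed to 4698, 2310 and 819 CPM in the 3 libraries of that group against 345 to 1561 CPM in all other intestines. By that sum the first and second libraries lay above the other intestines, and the third did not. Fits without the third library rest on the first and second in that group, and which library was atypical was not tested. Results that rest on the third library are given with and without it, and the part of erythroid RNA in them was not tested.

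Casp9 was lower and Bid higher than in controls in several genotypes, each by over 1 on the log2 scale at the furthest, and their promoters are shown for that reason. Pmaip1 was also higher by over 1 at the furthest, and its promoter is not reported here. Casp9 lies on chromosome 4 (141793612 to 141815976, plus strand, GRCm38) and Bid on chromosome 6 (120891930 to 120916853, minus strand). Each RefSeq promoter (GRCm38.p6) spans 250 bases before to 50 bases after the start of the transcript, is printed 5' to 3' on the strand of the gene, and has the GC box GGGCGG in capitals.
Casp9, chr4:141793362-141793661, plus strand: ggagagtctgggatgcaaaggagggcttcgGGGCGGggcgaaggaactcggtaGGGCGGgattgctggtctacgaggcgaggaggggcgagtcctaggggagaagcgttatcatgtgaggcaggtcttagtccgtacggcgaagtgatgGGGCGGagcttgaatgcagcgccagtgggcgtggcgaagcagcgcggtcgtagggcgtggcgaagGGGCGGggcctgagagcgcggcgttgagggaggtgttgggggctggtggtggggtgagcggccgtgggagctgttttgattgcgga
Bid, chr6:120916775-120917074, minus strand: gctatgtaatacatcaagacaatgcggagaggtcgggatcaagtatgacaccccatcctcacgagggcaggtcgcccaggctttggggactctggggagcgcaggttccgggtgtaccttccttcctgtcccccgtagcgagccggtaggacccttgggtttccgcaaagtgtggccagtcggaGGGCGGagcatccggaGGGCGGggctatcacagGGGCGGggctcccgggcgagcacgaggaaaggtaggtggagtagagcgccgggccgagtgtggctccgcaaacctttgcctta
The Casp9 window held 4 GC boxes and the Bid window 3, counted on both strands. A GC box was present in 35.7% of the 32851 promoters of the RefSeq table, so its presence sets neither gene apart. Neither window matched the core of the interferon-stimulated response element (GAAA, any 2 bases, GAAA, in 3.44% of promoters), TTCNNNGAA, the STAT dimer motif (8.30%), CACGTG, the E-box (7.15%), or TGACG, a CREB/ATF motif (20.8%). CAAAGT, part of HNF4 motifs, occurred in the Bid window and not in that of Casp9 (14.4% of promoters). A match of letters is no evidence of binding, and the absence of a match says nothing about the factor. Promoters of 7 of the 8 genes, all but Pmaip1, were in the table, in 10 entries.

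Among the 8 genes, Casp9 was lower and Pmaip1 higher than in Mlkl-/- controls in each mutant intestine except D387A on its own. Bid was higher in some of these genotypes and not in others, and Bcl2l1 was lower only where Cflar was deleted and Casp1 intact. Bax, Bak1, Mcl1 and Bcl2l11 each passed in some intestinal genotypes, by 0.58 or less on the log2 scale, and none of the 8 passed the test in MEFs. Calls were made in edgeR at a Benjamini-Hochberg adjusted p under 0.05 over all genes tested (quasi-likelihood F test), and each count is read against the share of all tested genes that passed in the same comparison.

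**Figure D1:**
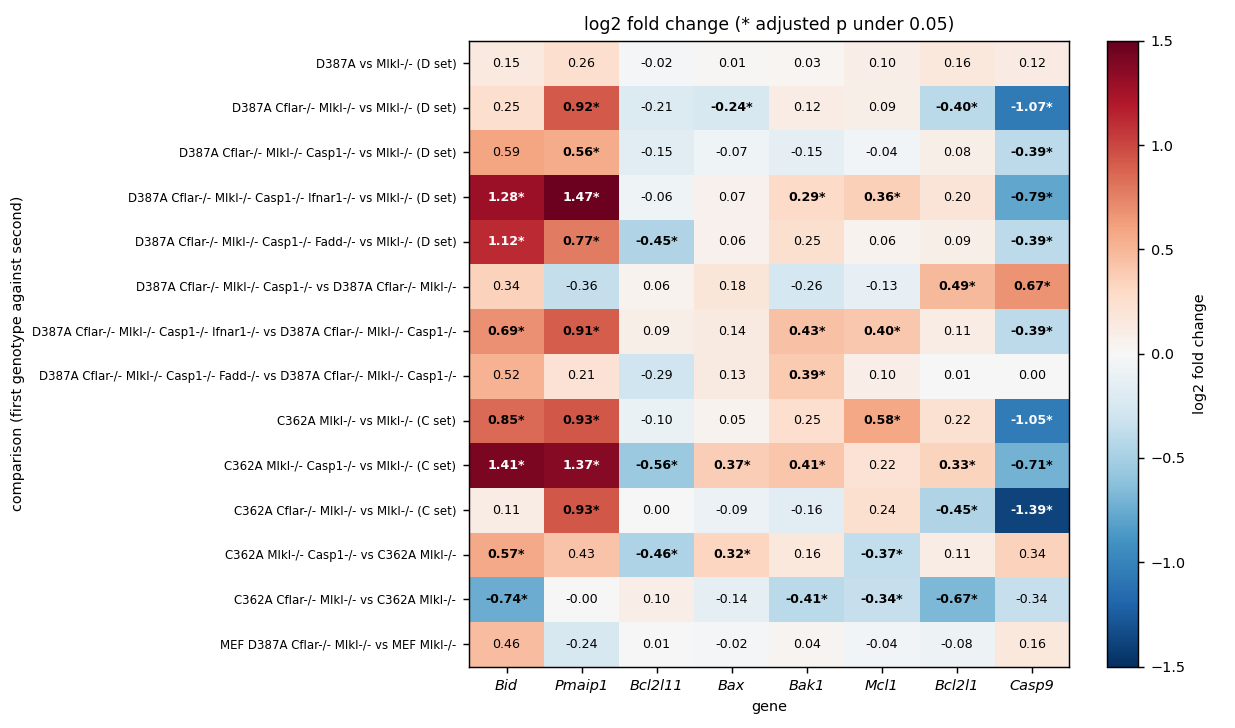
Log2 fold change of each of the 8 genes (columns) in each of the 14 comparisons within a set (rows), with asterisks for adjusted p under 0.05 (edgeR). The columns of Pmaip1 and Casp9 show opposite signs through most of the intestinal rows, up to 1.47 for Pmaip1 and down to -1.39 for Casp9, and the MEF row holds no asterisk.

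D387A on its own changed 0 of the 8 genes relative to the Mlkl-/- control, where 0.00545% of 18360 tested genes passed. None of the 8 passed at an unadjusted p under 0.05 in edgeR, and DESeq2 and limma-voom also called 0. D387A Cflar-/- Mlkl-/- intestines changed 4 genes, Pmaip1 up and Casp9, Bcl2l1 and Bax down, beside 59.4% of all tested genes. With Casp1 also deleted, 2 of the 8 passed (Pmaip1 up, Casp9 down) beside 21.4% of all tested genes. Adding Ifnar1-/- to that genotype gave 5 calls, Bid, Pmaip1, Bak1 and Mcl1 up and Casp9 down, beside 48.3%. Adding Fadd-/- in place of Ifnar1-/- gave 4, Bid and Pmaip1 up and Bcl2l11 and Casp9 down, beside 18.4%. The share of the 8 genes that passed was thus above that of all genes in the Fadd-/- genotype and below it in D387A Cflar-/- Mlkl-/- intestines, a description of 8 genes that share libraries and controls.

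Within the D387A set, deletion of Casp1 changed 2 of the 8 genes (Bcl2l1 and Casp9, both up), beside 46.9% of all tested genes. Deletion of Ifnar1 on top changed 5 (Bid, Pmaip1, Bak1 and Mcl1 up, Casp9 down), beside 30.6%. Deletion of Fadd on top of Casp1 changed 1 (Bak1, up), beside 17.9%. All 3 comparisons share the D387A Cflar-/- Mlkl-/- Casp1-/- group, of which the third library differed from the first and second. Without the third library, Bid and Pmaip1 passed as well under Fadd deletion, at 1.00 (adjusted p 5.2e-06) and 0.44 (adjusted p 0.016). Those fits rest on the libraries with the highest erythroid sums.

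In the C362A set, C362A Mlkl-/- intestines changed 4 of the 8 genes (Bid, Pmaip1 and Mcl1 up, Casp9 down) beside 42.1% of the 19408 genes tested. C362A Mlkl-/- Casp1-/- intestines changed 7, all but Mcl1, with Bcl2l11 and Casp9 down, beside 36.0%. C362A Cflar-/- Mlkl-/- intestines changed 3 (Pmaip1 up, Bcl2l1 and Casp9 down) beside 52.8%. Deletion of Casp1 in C362A Mlkl-/- intestines changed 4 (Bid and Bax up, Bcl2l11 and Mcl1 down) beside 33.5%. Deletion of Cflar changed 4 (Bid, Bak1, Mcl1 and Bcl2l1, all down) beside 19.4%. The median log2 fold change of the 8 genes was 0.35 in C362A Mlkl-/- Casp1-/- against -0.0014 over all tested genes, and -0.34 against -0.021 on deletion of Cflar.

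In MEFs, 0 of the 8 genes passed beside 0.110% of 15465 tested genes. Of the 8, 1 had an unadjusted p under 0.05 in edgeR, Bid, and it was also the call that DESeq2 made where limma-voom made 0. The effect of the Cflar-null caspase-8 mutant did not pass as different between the D387A and C362A sets for any of the 8 genes, 0 also at an unadjusted p under 0.05 and in DESeq2 and limma-voom, where 0.127% of 19643 genes passed. The effect of Casp1 deletion differed between the sets for 2 of the 8 (Bcl2l11 and Pmaip1) beside 16.9% of all tested genes. The effect of the D387A Cflar-/- Mlkl-/- genotype differed between intestine and MEFs for 2 (Pmaip1 and Casp9) beside 38.4% of 18862 genes. These contrasts test the difference itself. The Cflar-null and the tissue contrasts set each mutant against its own Mlkl-/- control, and the Casp1 contrast sets each Casp1-deleted genotype against its mutant base genotype, in which Cflar was deleted in the D387A set and intact in the C362A set.

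**Figure D2:**
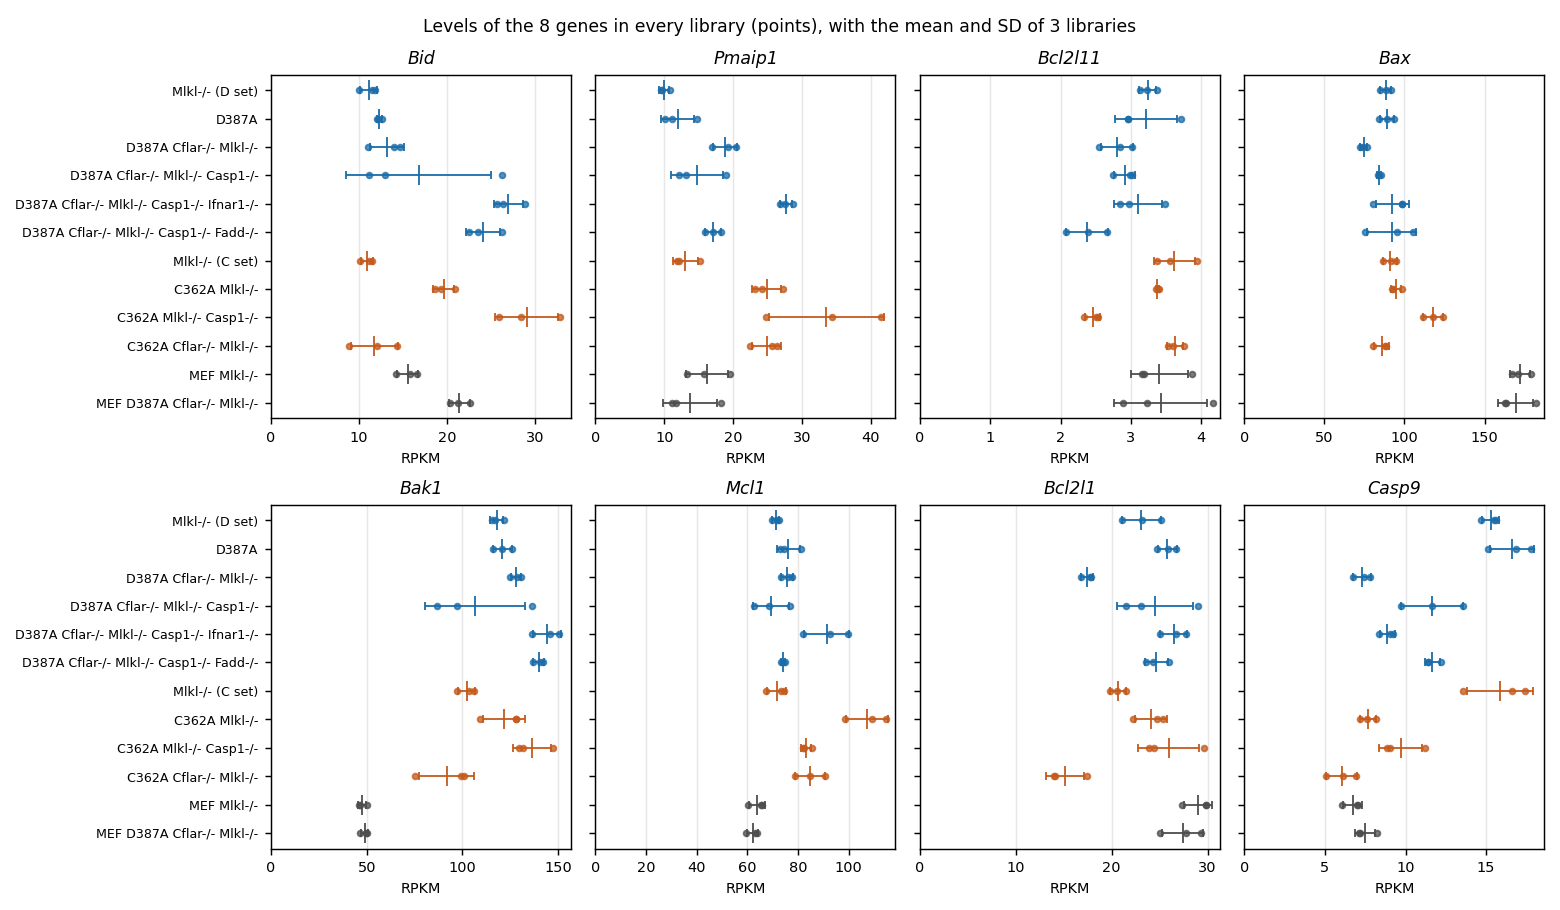
RPKM of each of the 8 genes in every library (points, 3 per group) with the group mean and SD, by genotype within the D387A intestines, the C362A intestines and the MEFs. Casp9 falls from 14.7 to 15.6 RPKM in the Mlkl-/- controls of the D387A set to 6.71 to 7.77 RPKM in D387A Cflar-/- Mlkl-/-, and the third D387A Cflar-/- Mlkl-/- Casp1-/- library lies above its group for Bid.

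Pmaip1 encodes NOXA, a BH3-only protein best known for binding MCL1. In the D387A set its level was 9.65, 10.8 and 9.48 RPKM in the 3 Mlkl-/- controls and 19.3, 20.4 and 16.9 RPKM in D387A Cflar-/- Mlkl-/- intestines, a log2 fold change of 0.92 (SE 0.15, adjusted p 4.5e-05). The groups did not overlap. With Casp1-/- added it was at 12.1, 13.1 and 19.0 RPKM (0.56, SE 0.15, adjusted p 0.0133), and the call was lost without the third library of that group (0.34, adjusted p 0.075), without the first control (0.53, adjusted p 0.053), or with only these groups in the fit (0.56, adjusted p 0.072). With Casp1-/- Ifnar1-/- it reached 27.6, 26.8 and 28.6 RPKM (1.47, SE 0.15), the highest of the set, and with Casp1-/- Fadd-/- 15.9, 17.1 and 18.3 RPKM (0.77, SE 0.15). Deletion of Ifnar1 raised Pmaip1 by 0.91 (SE 0.15, adjusted p 0.00059), with no overlap between the 3 libraries on either side. In D387A on its own it was at 14.7, 10.1 and 11.1 RPKM, which overlapped the controls. The sum of the 8 epithelial markers moved with Pmaip1 in part of this set. It was 4094 to 4598 CPM in controls, 5023 to 5322 CPM in D387A Cflar-/- Mlkl-/-, 3656, 4089 and 5659 CPM with Casp1-/-, 5944 to 6216 CPM with Casp1-/- Ifnar1-/- and 5298 to 5696 CPM with Casp1-/- Fadd-/-. In D387A on its own it was 4922 to 5131 CPM, above the controls, while Pmaip1 overlapped theirs. The first and second Casp1-/- libraries lay below the controls in this sum and above them in Pmaip1. In the C362A set the sum was 3816 to 4492 CPM in controls, 5348 to 6521 CPM in C362A Mlkl-/-, 6216 to 6580 CPM with Casp1-/- and 4129 to 5410 CPM with Cflar-/-. The part of epithelial RNA in the level of Pmaip1 was not tested.

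The C362A set gave Pmaip1 a like range. It was at 11.9, 12.1 and 15.1 RPKM in controls, at 23.2, 24.2 and 27.2 RPKM in C362A Mlkl-/- (0.93, SE 0.16, adjusted p 0.000326) and at 22.5, 26.4 and 25.6 RPKM in C362A Cflar-/- Mlkl-/- (0.93, SE 0.16, adjusted p 0.000243). These mutants did not differ detectably from each other (-0.0013, 95% interval -0.32 to 0.31). C362A Mlkl-/- Casp1-/- intestines spread widest, at 41.5, 34.3 and 24.8 RPKM (1.37 over the control, SE 0.16). Against C362A Mlkl-/- that was 0.43 (adjusted p 0.0519), and it passed without the third library of the Casp1-deleted group (0.60, adjusted p 0.0075), as it did in DESeq2 (adjusted p 0.043), without a filter (adjusted p 0.036) and with only these groups in the fit (adjusted p 0.040). In the D387A set deletion of Casp1 gave -0.36 (adjusted p 0.0543), past the threshold without the third Casp1-/- library (-0.58, adjusted p 0.00082) or without the third library with Casp1 (-0.43, adjusted p 0.043), and with all libraries in DESeq2 (adjusted p 0.047), limma-voom (adjusted p 0.034) and without a filter (adjusted p 0.017). The value was thus lower in the D387A set and higher in the C362A set, and the difference between these effects passed the test (-0.77, SE 0.23, adjusted p 0.0232). It held in 7 of 12 fits that left out 1 library and was lost without the second D387A Cflar-/- Mlkl-/- library (-0.71), the first (-0.64) or second (-0.69) with Casp1-/- added, or the first C362A library without (-0.70) or with (-0.58) Casp1-/-, at adjusted p 0.054 to 0.086, and also with only the groups compared in the fit (-0.75, adjusted p 0.060). Without the third D387A Cflar-/- Mlkl-/- Casp1-/- library, Bid (-0.67, adjusted p 0.014), Bak1 (-0.61, adjusted p 0.0036) and Casp9 (0.48, adjusted p 0.035) also passed in this contrast, and Bcl2l1 did without the first library of that group (0.49, adjusted p 0.033) or the first C362A Mlkl-/- Casp1-/- library (0.51, adjusted p 0.021), in DESeq2 (0.41, adjusted p 0.037) and among genes with a mean of at least 50 reads (0.46, adjusted p 0.021). The base genotypes also differed, since Cflar was deleted on the D387A side alone.

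Bid encodes the BH3-only protein that caspase-8 cleaves. In the D387A set its level was 11.5, 10.001 and 11.8 RPKM in controls and 14.0, 11.02 and 14.7 RPKM in D387A Cflar-/- Mlkl-/- (0.25, SE 0.22, adjusted p 0.334), so the groups overlapped. In the genotype with Casp1-/- added, it was at 11.1 and 12.9 RPKM in the first and second libraries and at 26.3 RPKM in the third. The value of the third library lay within the ranges of the Ifnar1-/- genotype (25.7, 26.4 and 28.9 RPKM) and the Fadd-/- genotype (23.6, 26.3 and 22.5 RPKM). Both of these genotypes were above the controls without overlap, by 1.28 (SE 0.22, adjusted p 0.000135) and 1.12 (SE 0.22, adjusted p 0.00163). Bid in the Casp1-/- genotype did not pass against the controls (0.59, adjusted p 0.0612), and the value was 0.11 (adjusted p 0.549) without the third library but passed without the first (0.82, adjusted p 0.0094) or the second (0.75, adjusted p 0.025). With all libraries it passed in DESeq2 (0.59, adjusted p 0.030) and without a filter on low counts (0.59, adjusted p 0.012). Casp1 deletion gave 0.34 (adjusted p 0.205), past the threshold without the first Casp1-/- library (0.57, adjusted p 0.028), and turned in sign without the third (-0.14, adjusted p 0.346). Macrophage and monocyte genes (8, none at 0) moved with Bid in part of this set. They summed to 339, 324 and 535 CPM in the 3 Casp1-/- libraries, 521 to 610 CPM with Ifnar1-/- and 420 to 437 CPM with Fadd-/-, against 333 to 353 CPM in controls. In D387A Cflar-/- Mlkl-/-, where Bid was at 14.0, 11.02 and 14.7 RPKM, they summed to 284, 268 and 375 CPM. Their part in the level of Bid was not tested.

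Whether Ifnar1 deletion changed Bid also turned on that group. The log2 fold change was 0.69 (SE 0.21, adjusted p 0.0216) with all libraries and 1.16 (adjusted p 5.7e-07) without the third Casp1-/- library. It was 0.46 (adjusted p 0.111) without the first Casp1-/- library and 0.53 (adjusted p 0.112) without the second, and it also missed the threshold without the second (0.70, adjusted p 0.052) or the third (0.63, adjusted p 0.071) Ifnar1-/- library, or with only these groups in the fit (0.69, adjusted p 0.142). Fadd deletion gave 0.52 (adjusted p 0.0973), past the threshold in limma-voom (0.63, adjusted p 0.037) and without a filter (0.53, adjusted p 0.025).

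Bid separated 3 levels in the C362A set. Controls were at 10.1, 11.4 and 11.2 RPKM, C362A Mlkl-/- at 18.7, 19.3 and 20.9 RPKM (0.85, SE 0.15, adjusted p 0.000353), and C362A Mlkl-/- Casp1-/- at 25.9, 32.9 and 28.4 RPKM (1.41, SE 0.15, adjusted p 8.3e-06). The last step, Casp1 deletion, was 0.57 (SE 0.15, adjusted p 0.00895), and it was lost without the second C362A Mlkl-/- Casp1-/- library (0.46, adjusted p 0.061). C362A Cflar-/- Mlkl-/- intestines lay at 12.03, 8.93 and 14.4 RPKM, overlapping the controls, and 0.74 below C362A Mlkl-/- on the log2 scale (-0.74, SE 0.15, adjusted p 0.0035). The macrophage and monocyte sum did not follow Bid between these mutants, at 651 to 668 CPM in C362A Mlkl-/- and 465 to 493 CPM with Casp1-/- added, where Bid was higher. Bid was near the control level in both intestines that lacked Cflar with Casp1 intact.

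Bcl2l11, the BH3-only gene for BIM, had the lowest level of the 8 in every group, between 2.07 and 4.16 RPKM. It passed the test in few comparisons. C362A Mlkl-/- Casp1-/- intestines were at 2.50, 2.34 and 2.53 RPKM against 3.37, 3.56 and 3.94 RPKM in controls (-0.56, SE 0.10, adjusted p 0.000938) and 3.35, 3.40 and 3.39 RPKM in C362A Mlkl-/- (-0.46, SE 0.10, adjusted p 0.00368). In the D387A set it fell where Fadd was deleted, at 2.07, 2.40 and 2.66 RPKM against 3.37, 3.13 and 3.23 RPKM in controls (-0.45, SE 0.11, adjusted p 0.0115), and this was lost without the first Fadd-/- library (-0.37, adjusted p 0.051). Fadd deletion passed without the third Fadd-/- library (-0.38, adjusted p 0.047, against -0.29 and 0.0863). Casp1 deletion gave 0.055 (95% interval -0.17 to 0.28) in the D387A set. The difference between the effects of Casp1 deletion in the D387A and C362A sets was 0.54 (SE 0.15, adjusted p 0.0151) and passed in 12 of 12 fits that left out 1 library.

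Bax and Bak1 encode the effectors that open the outer mitochondrial membrane. Bax was at 91.5, 88.4 and 84.7 RPKM in the D387A set's controls and at 74.3, 72.3 and 76.8 RPKM in D387A Cflar-/- Mlkl-/- (-0.24, SE 0.10, adjusted p 0.0469), a call that held in 0 of 6 fits that left out 1 library (adjusted p 0.055 to 0.15) and was lost without a filter (adjusted p 0.092). The other D387A genotypes overlapped the controls, with the Fadd-/- group the widest at 105, 95.5 and 75.5 RPKM. In C362A Mlkl-/- Casp1-/- it was at 112, 124 and 118 RPKM against 86.6, 91.5 and 95.0 RPKM in controls (0.37, SE 0.09, adjusted p 0.00604), lost without the second mutant library (0.31, adjusted p 0.051). Against C362A Mlkl-/- (98.3, 92.5 and 92.8 RPKM) the difference was 0.32 (adjusted p 0.0152), and it passed in 3 of 6 such fits, missing without the second (0.30) or the third (0.30) C362A Mlkl-/- library or the second with Casp1-/- (0.27), and it missed without a filter (0.31, adjusted p 0.081).

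Bak1 was at 122, 117 and 115 RPKM in the D387A set's controls. The genotypes with Ifnar1-/- (146, 136 and 150 RPKM) and Fadd-/- (142, 137 and 141 RPKM) lay above them without overlap, at 0.29 (adjusted p 0.0494) and 0.25 (adjusted p 0.162), and the first of these calls held in 0 of 6 fits that left out 1 library (adjusted p 0.057 to 0.14) and was lost without a filter (adjusted p 0.062). The second passed with only these groups in the fit (0.27, adjusted p 0.019). Casp1-/- libraries were at 86.8 and 97.0 RPKM and, in the third, at 136 RPKM. Without the third library, Bak1 fell by 0.48 on Casp1 deletion (-0.48, adjusted p 6.6e-05, against -0.26 and adjusted p 0.074 with it) and rose by 0.65 with Ifnar1-/- (adjusted p 5.3e-06, against 0.43 and adjusted p 0.0106) and by 0.61 with Fadd-/- (adjusted p 1.9e-05, against 0.39 and adjusted p 0.0276). Without the first or second Casp1-/- library the Ifnar1 call was lost (0.31 and 0.37, adjusted p 0.064 and 0.060), and the Fadd call held in 1 of 6 fits. With only the groups compared in the fit both were lost (adjusted p 0.122 and 0.193), and in limma-voom the effect of Casp1 deletion passed (-0.29, adjusted p 0.043). Against controls the Casp1-/- genotype was at -0.15 (adjusted p 0.411), and at -0.36 (adjusted p 0.0040) without the third library. In the C362A set Bak1 was at 97.4, 106 and 103 RPKM in controls and 147, 132 and 130 RPKM in C362A Mlkl-/- Casp1-/- (0.41, adjusted p 0.0252, held in 1 of 6 fits, lost without a filter at adjusted p 0.060). On Cflar deletion it was at 101, 75.3 and 99.5 RPKM against 128, 109 and 128 RPKM (-0.41, adjusted p 0.0448), which passed in 3 of 6 fits and was lost without the first (-0.37) or the third (-0.37) C362A Mlkl-/- library or the second Cflar-/- library (-0.28), and also without a filter (-0.38, adjusted p 0.098) and with only these groups in the fit (-0.36, adjusted p 0.149).

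The balance of the effectors differed between tissue and culture. Per length, Bak1 was at 0.855 to 1.86 times the level of Bax in the 30 intestines and at 0.269 to 0.305 times in the 6 MEF libraries. Bax was at 163 to 182 RPKM in MEFs and 72.3 to 124 RPKM in intestines, Bak1 at 45.9 to 50.3 and 75.3 to 150 RPKM, with no overlap for either gene. Intestines and MEFs were scaled separately, so the ratio within a library is the firmer comparison.

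Mcl1 and Bcl2l1 restrain the effectors. Mcl1 was steady in the D387A set, at 72.4, 71.6 and 69.7 RPKM in controls and 73.2, 76.2 and 77.8 RPKM in D387A Cflar-/- Mlkl-/- (0.087, 95% interval -0.081 to 0.26), and rose with Ifnar1-/- to 82.0, 99.6 and 92.7 RPKM (0.36, SE 0.09, adjusted p 0.00244). Ifnar1 deletion itself gave 0.40 (SE 0.09, adjusted p 0.00298), a call lost with only these groups in the fit (0.40, adjusted p 0.076). In the C362A set it was at 67.4, 73.1 and 74.3 RPKM in controls and 98.3, 109 and 115 RPKM in C362A Mlkl-/- (0.58, SE 0.11, adjusted p 0.000699), the highest group mean of the 12. C362A Cflar-/- Mlkl-/- was 0.24 above controls (adjusted p 0.0818), past the threshold without the third library of that group (0.29, adjusted p 0.046), in DESeq2 (0.23, adjusted p 0.041) and among genes with a mean of at least 50 reads (0.27, adjusted p 0.049). Deletion of Casp1 or of Cflar from there gave lower values, 82.2, 85.6 and 82.1 RPKM (-0.37, adjusted p 0.0211) and 90.7, 84.7 and 78.9 RPKM (-0.34, adjusted p 0.0457). Each of those calls held in 1 of 6 fits that left out 1 library, and only without the first C362A Mlkl-/- library (adjusted p up to 0.093 and 0.18 otherwise). Without a filter both were lost (adjusted p 0.059 and 0.176), and that on Cflar deletion also with RLE size factors (adjusted p 0.0501) or only these groups in the fit (adjusted p 0.196). Neutrophil genes (8) moved with Mcl1 in part: they summed to 331 to 419 CPM in C362A Mlkl-/-, 177 to 278 CPM with Cflar-/-, 17.6 to 21.9 CPM with Casp1-/- and 12.2 to 30.8 CPM in controls. In the Ifnar1-/- genotype, where Mcl1 also rose, they summed to 19.9 to 29.3 CPM. Macrophage and monocyte genes were higher in both genotypes, at 651 to 668 CPM in C362A Mlkl-/- against 324 to 397 CPM in controls and at 521 to 610 CPM with Ifnar1-/- against 333 to 353 CPM. The part of either list in the level of Mcl1 was not tested.

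Bcl2l1 was lower where Cflar was deleted and Casp1 intact. It was at 25.1, 23.2 and 21.05 RPKM in the D387A set's controls and 17.8, 16.8 and 17.9 RPKM in D387A Cflar-/- Mlkl-/- (-0.40, SE 0.10, adjusted p 0.00154). With Casp1 deleted as well it was at 21.5, 23.0 and 29.0 RPKM, 0.49 above the genotype with Casp1 (SE 0.10, adjusted p 0.000495), which placed it back among the controls (0.083, 95% interval -0.10 to 0.27). In the C362A set it was at 20.6, 21.5 and 19.8 RPKM in controls and 14.0, 14.0 and 17.4 RPKM in C362A Cflar-/- Mlkl-/- (-0.45, SE 0.12, adjusted p 0.00548), and 0.67 below C362A Mlkl-/- on the log2 scale (-0.67, SE 0.12, adjusted p 0.00157). These 4 calls passed in 6 of 6 fits that left out 1 library. Cell type markers moved with Bcl2l1 in these mutants. Absorptive enterocyte genes (8, none at 0) summed to 2210 to 4373 CPM in D387A Cflar-/- Mlkl-/- and 3531 to 10935 CPM in C362A Cflar-/- Mlkl-/-, against 39234 to 61623 CPM in the controls of both sets. Smooth muscle genes (8, none at 0) summed to 7262 to 9102 CPM against 5285 to 5760 CPM in the D387A set's controls, and to 6220 to 7384 CPM against 2695 to 4392 CPM in those of the C362A set. The enterocyte sum did not follow Bcl2l1 in every genotype. It was 21057 to 26168 CPM in C362A Mlkl-/-, where Bcl2l1 was at 25.4, 22.2 and 24.7 RPKM, above the controls. In D387A Cflar-/- Mlkl-/- Casp1-/-, where Bcl2l1 was among the controls, the sum was 24042 to 34818 CPM. The part of these cell types in the level of Bcl2l1 was not tested. The higher value in C362A Mlkl-/- Casp1-/- (0.33, adjusted p 0.0412) passed in 0 of 6 such fits and was lost without a filter (adjusted p 0.110) or with RLE size factors (adjusted p 0.0507). With Casp1-/- Ifnar1-/- the value against controls was 0.20 (adjusted p 0.1003), past the threshold with only these groups in the fit (0.21, adjusted p 0.049). The effect of Ifnar1 deletion (0.11, adjusted p 0.392) passed only without the third Casp1-/- library (0.25, adjusted p 0.0195).

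Casp9, which encodes the initiator caspase of the apoptosome, was lower in every intestinal genotype with a mutant caspase-8 and a further deletion. In the D387A set it was at 15.5, 14.7 and 15.6 RPKM in controls, 7.77, 7.42 and 6.71 RPKM in D387A Cflar-/- Mlkl-/-, 11.7, 13.6 and 9.69 RPKM with Casp1-/-, 9.03, 8.32 and 9.24 RPKM with Casp1-/- Ifnar1-/- and 11.4, 11.4 and 12.2 RPKM with Casp1-/- Fadd-/-. None of these 4 groups overlapped the controls. The log2 fold changes were -1.07 (SE 0.10, adjusted p 8.9e-08), -0.39 (SE 0.10, adjusted p 0.00986), -0.79 (SE 0.10, adjusted p 9.1e-06) and -0.39 (SE 0.10, adjusted p 0.011). Deletion of Casp1 raised Casp9 by 0.67 (SE 0.10, adjusted p 3.5e-05), deletion of Ifnar1 lowered it again (-0.39, SE 0.10, adjusted p 0.00775), and deletion of Fadd left it at 0.0032 (95% interval -0.19 to 0.20). The Ifnar1 effect was lost without the second Casp1-/- library (-0.27, adjusted p 0.061), and the other calls passed in 6 of 6 fits that left out 1 library. With only the groups compared in the fit, the Ifnar1 effect (-0.39, adjusted p 0.084) and the Casp1-/- genotype against controls (-0.39, adjusted p 0.071) were lost. D387A on its own was at 17.8, 15.1 and 16.9 RPKM.

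Casp9 in the C362A set was at 17.4, 16.6 and 13.6 RPKM in controls, 8.18, 7.20 and 7.61 RPKM in C362A Mlkl-/- (-1.05, SE 0.14, adjusted p 2.9e-05), 11.2, 8.85 and 9.02 RPKM with Casp1-/- (-0.71, SE 0.14, adjusted p 0.00141) and 6.13, 5.03 and 6.94 RPKM with Cflar-/- (-1.39, SE 0.14, adjusted p 1.5e-06). All 3 groups lay below the controls without overlap. Deletion of Casp1 gave 0.34 (adjusted p 0.0742) and deletion of Cflar -0.34 (adjusted p 0.104), neither past the threshold, of which the former passed with only these groups in the fit (0.33, adjusted p 0.030) and the latter without the third Cflar-/- library (-0.46, adjusted p 0.031). MEFs, scaled apart from the intestines, were at 7.08, 7.003 and 6.05 RPKM in Mlkl-/- and 7.12, 8.22 and 7.16 RPKM in D387A Cflar-/- Mlkl-/- (0.16, 95% interval -0.030 to 0.34).

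Absorptive enterocyte genes moved with Casp9 in some genotypes and not in others. The 8 markers (Alpi, Fabp1, Fabp2, Apoa1, Apoa4, Lct, Anpep and Slc5a1) summed to 44658 to 51495 CPM in the D387A set's controls and 2210 to 4373 CPM in D387A Cflar-/- Mlkl-/-, and to 39234 to 61623 CPM in the C362A set's controls, 21057 to 26168 CPM in C362A Mlkl-/- and 3531 to 10935 CPM with Cflar-/-. Casp9 was low in all 3 of these mutants. The sum was also below the controls with Casp1-/- (24042 to 34818 CPM) and with Casp1-/- Ifnar1-/- (29640 to 41638 CPM), where Casp9 was lower too. In contrast, the sum was 49582 to 55834 CPM in the Fadd-/- genotype and 62351 to 77919 CPM in C362A Mlkl-/- Casp1-/-, in the range of the controls or above it, and Casp9 was lower in both. None of the 8 markers was at 0 in the intestines. In MEFs they summed to 33.8 to 56.0 CPM with 4 of the 8 at 0 in each group.

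**Figure D3:**
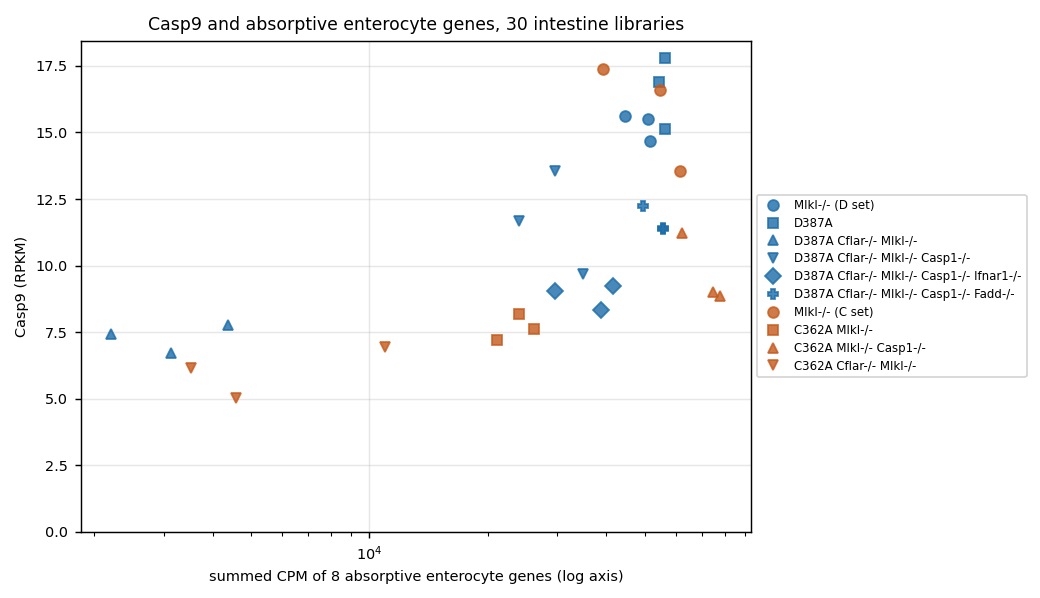
Casp9 in RPKM (vertical axis) against the summed CPM of the 8 absorptive enterocyte markers (horizontal axis, log scale) for each of the 30 intestinal libraries, with colour for the set and symbol for the genotype. Low sums go with low Casp9, but the C362A Mlkl-/- Casp1-/- libraries combine sums of 62351 to 77919 CPM with 8.85 to 11.2 RPKM of Casp9.

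In MEFs the 8 genes were close between genotypes. Bid was at 15.8, 16.6 and 14.3 RPKM in Mlkl-/- and 20.4, 21.2 and 22.7 RPKM in D387A Cflar-/- Mlkl-/- without overlap (0.46, SE 0.08), at an adjusted p of 0.129 in edgeR, 0.0024 in DESeq2 and 0.010 in edgeR without a filter. Macrophage and monocyte genes summed to 63.6 to 82.9 CPM in the former and 160 to 207 CPM in the latter, also without overlap, and their part in the level of Bid was not tested. Pmaip1 was at 15.8, 13.3 and 19.5 RPKM and 18.3, 11.2 and 11.7 RPKM (-0.24, 95% interval -0.63 to 0.16). The effect of D387A Cflar-/- Mlkl-/- in intestine minus that in MEFs was 1.18 for Pmaip1 (SE 0.26, adjusted p 0.000807) and -1.19 for Casp9 (SE 0.14, adjusted p 8.9e-07), each past the threshold in 12 of 12 fits that left out 1 library. For the other 6 genes this difference lay between -0.30 and 0.15, and Bcl2l1 (-0.30, adjusted p 0.076) passed without the third intestinal control (-0.38) or the second mutant MEF library (-0.36), and in DESeq2 (-0.34), with RLE size factors (-0.34), among genes with a mean of at least 50 reads (-0.31) and with only these groups in the fit (-0.31), at adjusted p 0.028 to 0.047.

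Casp6 encodes an effector caspase, and Dffa the inhibitor of a nuclease that cuts DNA in dying cells. Casp6 was at 88.6, 91.7 and 87.0 RPKM in the D387A set's controls and 22.1, 25.6 and 21.3 RPKM in D387A Cflar-/- Mlkl-/- (-1.95, SE 0.15, adjusted p 8.6e-09), and rose by 1.62 (SE 0.15, adjusted p 2.1e-07) on Casp1 deletion. C362A Mlkl-/- (23.3, 16.9 and 25.2 RPKM, -1.91, SE 0.15) and C362A Cflar-/- Mlkl-/- (31.9, 24.2 and 25.0 RPKM, -1.60, SE 0.15) were low, while C362A Mlkl-/- Casp1-/- was at 105, 101 and 101 RPKM (0.32, adjusted p 0.094) against 73.7, 89.9 and 81.8 RPKM in controls. With Casp1-/- Ifnar1-/-, Casp6 also passed as lower, at 60.6, 68.1 and 67.9 RPKM (-0.44, adjusted p 0.0191), with an enterocyte sum of 29640 to 41638 CPM. With Casp1-/- Fadd-/-, Casp6 was at 0.16 (adjusted p 0.493). Fadd deletion gave 0.50 (adjusted p 0.026), and 0.30 (adjusted p 0.055) without the third Casp1-/- library. The enterocyte sum was also low in the 3 mutants with the lowest Casp6, but Casp6 did not follow it in every genotype. In D387A Cflar-/- Mlkl-/- Casp1-/- the sum was 24042, 29537 and 34818 CPM, overlapping that of C362A Mlkl-/-, while Casp6 was at 67.8, 94.1 and 50.2 RPKM (-0.33, adjusted p 0.117), and -0.14 (adjusted p 0.423) without the third library. Dffa fell in D387A Cflar-/- Mlkl-/- (-0.40, SE 0.08, adjusted p 0.000536) and C362A Cflar-/- Mlkl-/- (-0.62, SE 0.10, adjusted p 9.7e-05), and also in C362A Mlkl-/- (-0.57, adjusted p 0.00028), C362A Mlkl-/- Casp1-/- (-0.48, adjusted p 0.0019) and the D387A genotype with Ifnar1-/- (-0.29, adjusted p 0.0089). With Fadd-/- it was at -0.25 (adjusted p 0.0498), which held in 0 of 6 fits that left out 1 library, and with Casp1-/- at -0.067 (adjusted p 0.620). In MEFs Casp6 was at -0.082 (adjusted p 0.933), and the effect on it differed between intestine and MEFs (-1.84, SE 0.20, adjusted p 2.5e-07).

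Other genes of the route were read by list, in the 2 Cflar-null mutants that share intact Casp1, in which 59.4% (D387A) and 52.8% (C362A) of all tested genes passed in either direction. Of 12 other BCL2 family genes, 8 were tested in the D387A set, and 4 were lower and 0 higher in D387A Cflar-/- Mlkl-/- (median -0.33). In C362A Cflar-/- Mlkl-/- the same 8 gave 1 higher (Bik) and 4 lower (Bcl2l2, Bbc3, Bmf and Hrk). Hrk, a BH3-only gene, had 7, 18 and 16 reads in that mutant against 39, 32 and 16 in controls, and passed (-1.07, SE 0.39, adjusted p 0.0334) but not without the first or second control or the first mutant library. Bcl2a1a and Bcl2a1b, near-identical survival genes between which reads may be split, had 5 to 16 and 7 to 12 reads in the C362A Cflar-/- Mlkl-/- libraries against 0 to 1 and 0 to 2 in controls. They entered the C362A fit through the mutant groups where their reads were higher and were not tested in the D387A set, so they are left out of the count. Both are best known from blood cells, and the neutrophil sum of 177 to 278 CPM was also higher there than in controls. Of 6 apoptosome and mitochondrial release genes, 2 rose and 1 fell in D387A Cflar-/- Mlkl-/- (median -0.040), and 2 rose and 2 fell in C362A Cflar-/- Mlkl-/- (median -0.088), beside the same 59.4% and 52.8%, with Htra2, a released protease, at 1.04 (SE 0.13, adjusted p 1.7e-06) and 0.84 (SE 0.11, adjusted p 2.3e-05).

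Of 5 IAP genes, which encode caspase or cell-death inhibitors, 3 rose and 0 fell in each of these mutants (medians 0.31 and 0.37), which is near the 59.4% and 52.8% of all tested genes that passed. Birc3 (cIAP2) changed by 2.05 (SE 0.20, adjusted p 1e-07) and 1.62 (SE 0.13, adjusted p 1.3e-07), and Birc5 (survivin, a mitotic gene) by 1.00 (SE 0.10, adjusted p 1.6e-07) and 1.35 (SE 0.13, adjusted p 9e-07). Beside Birc5, 8 of 8 and 7 of 8 proliferation genes also rose in these mutants (medians 0.91 and 1.10).

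Pmaip1 and Bbc3 are known targets of p53 and Pmaip1 also of ATF4, and genes of both programmes were counted. Of 10 p53 targets, 3 rose and 3 fell in D387A Cflar-/- Mlkl-/- (median 0.081) and 2 rose and 3 fell in C362A Cflar-/- Mlkl-/- (median 0.24), also near the 59.4% and 52.8% over all genes. Sesn2 (-1.31 and -1.27, SE 0.12 and 0.13) and Trp53inp1 (-1.54 and -1.20, SE 0.18 and 0.15) fell in both, and Tnfrsf10b, a death receptor gene, rose in the D387A mutant (1.10, SE 0.16, adjusted p 1.1e-05) and was at 0.39 (adjusted p 0.0569) in the other. Of 7 genes of the integrated stress response, 6 rose and 1, Ddit3, fell in D387A Cflar-/- Mlkl-/- (median 1.89). In C362A Cflar-/- Mlkl-/- 6 rose and 0 fell (median 1.78), beside 59.4% and 52.8% of all tested genes that passed in these comparisons. Chac1 (3.57 and 3.24, SE 0.33 and 0.37) and Atf3 (2.47 and 3.54, SE 0.33 and 0.17) led, with Asns (2.12 and 1.71), Trib3 (1.89 and 1.78) and Ppp1r15a (1.43 and 1.82) behind them, all past the threshold in both. With Casp1-/- Ifnar1-/-, where Pmaip1 was highest in the D387A set, Atf3 was at 3.46, Chac1 at 2.92 and Asns at 1.35 against controls. Ppp1r15a was at 0.91 and Trib3 at 0.57 (adjusted p 0.084) in that genotype. The part of either programme in the level of Pmaip1 was not tested. In MEFs the medians of the 5 lists counted here lay between -0.072 and 0.066. The medians over all tested genes were -0.0065 and 0.029 in the intestinal comparisons.

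Within the D387A set, the genes whose log2 CPM ran closest to Casp9 over the 18 libraries were Epb41l3 (Pearson r 0.991), Slc5a6 (0.988) and Scp2 (0.988), and their r over the 12 C362A libraries was 0.989, 0.944 and 0.894. For Bid they were Ltf (0.985 and 0.926), Mxd1 (0.976 and 0.884) and Tapbpl (0.975 and 0.981), and for Pmaip1 Specc1 (0.960 and 0.764), Bmp2 (0.960 and 0.805) and Lsr (0.958 and 0.865). The 3 nearest genes of Bcl2l1 were Tmem82 (0.935 and 0.725), Arfgap1 (0.928 and 0.746) and Galns (0.925 and 0.948), those of Bax were Commd5 (0.923 and 0.891), Rit1 (0.913 and 0.932) and Commd1 (0.913 and 0.695), and those of Bak1 were Tmprss4 (0.940 and 0.744), Clptm1 (0.938 and 0.888) and Card19 (0.929 and 0.568). For Mcl1, Tmem87a kept its correlation (0.916 and 0.884), as did Sdcbp2 (0.903 and 0.818), while Nudt19 did not (0.911 and 0.275). For Bcl2l11, Vav2 kept it (0.824 and 0.813), and Lpar5 (0.828 and 0.135) and Atg2a (0.822 and -0.127) did not. Among the 8 themselves, Pmaip1 and Casp9 ran against each other (-0.760 and -0.622) and Bid and Pmaip1 together (0.757 and 0.688). Libraries of a group share a genotype, so these values describe the groups as much as the libraries.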

How the data were processed

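The authors aligned reads to the mouse genome (GRCm38/mm10) with GSNAP, kept uniquely mapped reads, and deposited 1 table per library with counts and RPKM per Ensembl gene. The deposited RPKM served only to check the deleted genes. The labels and the methods name different library kits, and whether counting used strand is not given in the sources used here. Here the raw counts were tested with edgeR 4.0.16 (R 4.3.3): filterByExpr (minimum count 10, minimum total 15), TMM, glmQLFit (prior count 0.125) and glmQLFTest, in 1 fit per set, with differences between sets in joint fits. Other RPKM were recomputed from the counts and the deposited exonic widths; gene positions are from GENCODE M21. A run of the procedure on simulated counts, in which few genes changed, is not reported here and does not measure the error rate in these data. The study used limma, which was run as an alternative (limma 3.58.1, voom), with DESeq2 1.42.0, RLE size factors, other filters, only the groups compared, a replicate block and each library left out. Named genes were the 8 members, pathway genes past adjusted p 0.05 and a log2 fold change of 1 in either Cflar-null mutant with Casp1 intact, and the 3 best correlated genes per member; other list genes were named after their values were seen, and some genes of the pathway are not reported here. Members and lists were chosen with earlier results of these data known. Same-numbered libraries deviated together in only 2 of 14 comparisons (D387A on its own, r 0.111 to 0.220; MEFs, r 0.181 to 0.310; all 42 pairs, r -0.438 to 0.310), and with the replicate block 0 members passed in either. Coordinates are GRCm38. Depth was 17943524 to 32307629 reads on genes, and each member drew at least 323 reads in every library.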

Additional observations from a re-analysis of the deposited data

Results flagged for a closer look

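The effect of Casp1 deletion on Bcl2l11 differed between the D387A and C362A sets by 0.54 on the log2 scale (adjusted p 0.0151), tested as the difference itself. Casp1 deletion left Bcl2l11 at 0.055 in D387A Cflar-/- Mlkl-/- intestines and at -0.46 in C362A Mlkl-/- intestines. The same test gave -0.77 for Pmaip1 (adjusted p 0.0232), from -0.36 in the D387A set and 0.43 in the C362A set. Cflar was deleted in the D387A base genotype and intact in that of the C362A set, so allele and Cflar cannot be told apart in either result.

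The effect of D387A Cflar-/- Mlkl-/- differed between intestine and MEFs by 1.18 for Pmaip1 (adjusted p 0.000807), from 0.92 in intestine and -0.24 in MEFs. For Casp9 the difference was -1.19 (adjusted p 8.9e-07), from -1.07 in intestine and 0.16 in MEFs.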

How the results depend on the processing

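Of 2040 refits of a single gene, 1909 stayed on the same side of the threshold (52 of these changed sign with neither value past it), 86 lost a call, 45 gained one and 0 reversed a called value. Calls gained and lost were 7 and 0 in DESeq2, 3 and 0 in limma-voom, 1 and 2 with RLE size factors, 3 and 0 at a mean of at least 50 reads, 5 and 8 without a filter, 5 and 10 with only the groups compared, 0 and 5 with the replicate block and 21 and 61 on leaving out 1 library; a prior count of 2 changed none of 136. Counts of members called moved by over 1.5 times as follows. With only the groups compared in the fit, 0 passed in D387A Cflar-/- Mlkl-/- Casp1-/- against controls, 1 on Ifnar1 deletion, 0 on Fadd deletion, 2 on Cflar deletion and 1 in the difference of the Casp1 effects. This setting does not apply to the MEFs, whose fit already holds just those groups. With limma-voom, 4 passed on Casp1 deletion in the D387A set and 2 on Fadd deletion. Without a filter, 2 passed on Fadd deletion, 2 on Cflar deletion and 1 in MEFs, where DESeq2 also gave 1. The replicate block gave 2 on Cflar deletion; over all comparisons it kept 131 of 136 gene results, and with no sign that numbers pair libraries in 12 of the 14 comparisons, a call lost under it is not read as a weaker effect. Leaving out 1 library gave 1 to 3 calls in D387A Cflar-/- Mlkl-/- Casp1-/- against controls, 2 to 4 on Casp1 deletion in the D387A set, 2 to 6 on Ifnar1 deletion, 0 to 3 on Fadd deletion, 4 to 6 in C362A Mlkl-/- Casp1-/- against controls, 1 to 4 on Casp1 deletion in the C362A set, 2 to 4 on Cflar deletion and 1 to 5 in the difference of the Casp1 effects. The cause of these changes was not tested.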
